A study of Mus musculus with 2 samples.

Results

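The cells described here are the glioma cells in which RNA of 5 genes took the largest share of captured RNA. The kinase ERK switches these genes on, and they then act on ERK signalling or its output: Spry1, Spry4, Dusp6, Etv4 and Etv5. They were found in single-cell RNA sequencing of PDGFB-driven gliomas of C57BL/6 mice, in which the gene of the growth factor PDGFB had been delivered in utero to the telencephalic ventricles of embryos. Tumours were taken about 40 days after birth, dissociated and sorted for GFP, and cells of 2 tumours were mixed for each of 2 droplet libraries, called pool 1 and pool 2. There was no untreated or tumour-free group, and the tumour of origin of a cell is not recorded. Among 7493 barcodes, 5370 had at least 500 genes, at most 15% mitochondrial UMIs (unique molecular identifiers, 1 per captured RNA molecule) and at least 3000 UMIs. In each pool these cells were ranked by the summed UMIs of the 5 genes over all their UMIs. The top 10% were called ERK feedback high (275 cells of pool 1 and 262 of pool 2, 537 in all), and the bottom 25% were called low (687 and 655 cells). The 1787 and 1704 cells between them were called middle.

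Platelet-derived growth factor binds the receptor tyrosine kinase Pdgfra, which signals through RAS, RAF and MEK to ERK. Active ERK raises the transcription of its own brakes. The Sprouty proteins (Spry1, Spry2, Spry4) and the related Spred proteins restrain signalling between the receptor and RAF, and Dusp6 is a phosphatase that removes the activating phosphates from ERK. Etv4 and Etv5 are ETS-family transcription factors that carry the signal on to other genes. RNA of these genes is widely used as a readout of ERK pathway output, and in oligodendrocyte precursors, the cells that PDGF-driven gliomas resemble, PDGF signalling favours proliferation over differentiation.

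The files held 33894255 UMIs in pool 1 and 40909383 in pool 2. Pool 1 had an Xist UMI in 94.3% of kept cells and a Y-linked UMI in 0 of 2749, which allows a share of up to 0.109%. Pool 2 had a Y-linked UMI in 75.4% and an Xist UMI in 0 of 2621 cells, which allows up to 0.114%, so every comparison was made within pools. The names of both pools share part of an identifier, and whether a mouse or litter is common to both is not stated. Between them the pools had 2 cell barcodes in common. Summed over 15 oligodendrocyte precursor markers, high cells held 20134 and 16635 CPM (the summed UMIs of a gene or list over all UMIs of the group, in parts per 1000000) in pools 1 and 2, against 13539 and 12665 CPM in low cells. The difference was smaller in cells balanced for depth and Malat1 share, a choice described below. There the precursor markers summed to 16618 and 14389 CPM in high cells, against 13814 and 12528 CPM in low cells. Summed erythroid markers were at 0 CPM in high cells of both pools. Vascular markers were at 3.63 and 4.04 CPM, against 3.75 and 5.31 CPM in low cells.

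In GRCm38 Spry1 is at chr3:37639947-37644598, Dusp6 at chr10:99263231-99267489, Etv4 at chr11:101769742-101785371 and Etv5 at chr16:22381309-22439719. The DNA just upstream of a start site is shown for Spry1, Dusp6 and a downstream start of Etv5 that lies within the gene as GENCODE places it, because these genes define the cells and ETS factors recognise the letters GGAA. Each sequence is the 250 bases before the start in the direction of transcription, from RefSeq, build GRCm38.p6, with every GGAA, or TTCC where the match is on the other strand, in capitals.
Spry1 (chr3:37639697-37639946, plus strand): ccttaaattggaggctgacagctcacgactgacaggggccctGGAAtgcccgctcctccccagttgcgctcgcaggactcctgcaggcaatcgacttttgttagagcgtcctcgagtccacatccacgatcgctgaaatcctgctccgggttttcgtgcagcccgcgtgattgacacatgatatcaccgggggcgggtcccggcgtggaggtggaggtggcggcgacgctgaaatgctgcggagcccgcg
Dusp6 (chr10:99262981-99263230, plus strand): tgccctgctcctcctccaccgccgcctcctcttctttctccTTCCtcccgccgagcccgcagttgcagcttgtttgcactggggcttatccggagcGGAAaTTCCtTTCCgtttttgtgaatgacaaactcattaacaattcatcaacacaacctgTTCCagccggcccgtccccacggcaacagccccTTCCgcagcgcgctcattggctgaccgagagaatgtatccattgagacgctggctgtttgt
Etv5, downstream start (chr16:22438369-22438618, minus strand): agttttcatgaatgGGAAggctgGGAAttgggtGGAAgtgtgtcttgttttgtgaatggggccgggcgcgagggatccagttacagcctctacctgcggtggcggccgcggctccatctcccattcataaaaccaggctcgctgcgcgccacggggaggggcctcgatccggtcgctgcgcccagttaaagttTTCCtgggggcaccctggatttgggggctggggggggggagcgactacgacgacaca
The Dusp6 window holds 6 matches to GGAA on either strand, the Etv5 window shown 4 and the Spry1 window 1. The window before the upstream start of Etv5 (chr16:22439571-22439820), not shown, holds 0. Of 32851 mouse promoter windows of the same length, 93.4% hold at least 1 match, with a median of 3. None of the 3 windows shown holds CCGGAA, a longer ETS motif found in 12% of windows and overlapping GGAA, or TGANTCA, the AP-1 motif found in 6.75% of windows. These matches describe letters in the DNA and show neither binding nor use.

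The score that chose the cells ran without a gap across each pool. In pool 1 the lowest high cell had 14.39 score-gene UMIs per 10000 UMIs and the highest middle cell 14.34, and in pool 2 these were 14.37 and 14.36. At the lower edge the lowest middle and highest low cells both stood at 4.09 in pool 1 and at 4.68 in pool 2. High cells had a median of 18.1 and 17.1 score UMIs per 10000, against 7.33 and 8.3 in middle cells and 2.54 and 2.94 in low cells. As whole counts, the median was 8 and 12 score UMIs in high cells, 8 and 12 in middle cells, and 2 and 3 in low cells. At the median, high and middle cells thus differed in total UMIs and not in score UMIs. All 5 score genes were detected in 21.5% and 44.3% of high cells, against 24.8% and 43% of middle cells. The low group held 123 and 74 cells with no score UMI.

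High cells were shallow cells. Their median depth was 4135 and 6303 UMIs, against 10696 and 14202 in middle cells and 10784 and 11964 in low cells. Of high cells, 60% and 57.3% lay in the shallowest of 5 equal bins of depth, against 14.6% and 18.9% of low cells. Malat1, a long noncoding RNA kept in the nucleus, took a median of 9.43% and 7.21% of UMIs in high cells, against 3.9% and 3.6% in low cells. Mitochondrial UMIs were 4.29% and 1.92% in high cells, against 2.63% and 1.25% in low cells. The part that depth plays in the results was not tested as a cause. Counts of called genes, and most single genes, are also given for a second choice of cells, in which the top 10% and bottom 25% were taken separately within 9 bins, 3 of depth by 3 of the Malat1 share, in each pool. These balanced high cells had 9244 and 13185 median UMIs, against 9818 and 12510 in balanced low cells, and a Malat1 share of 4.67% and 4.19%, against 4.2% and 3.91%. Of the cells first called high, 47.3% and 63% were also high when balanced. The balanced choice was made after the depth of high cells had been seen. Cells were also ranked within 5 bins of depth alone, and those counts are given where they are far from the others.

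**Figure D1:**
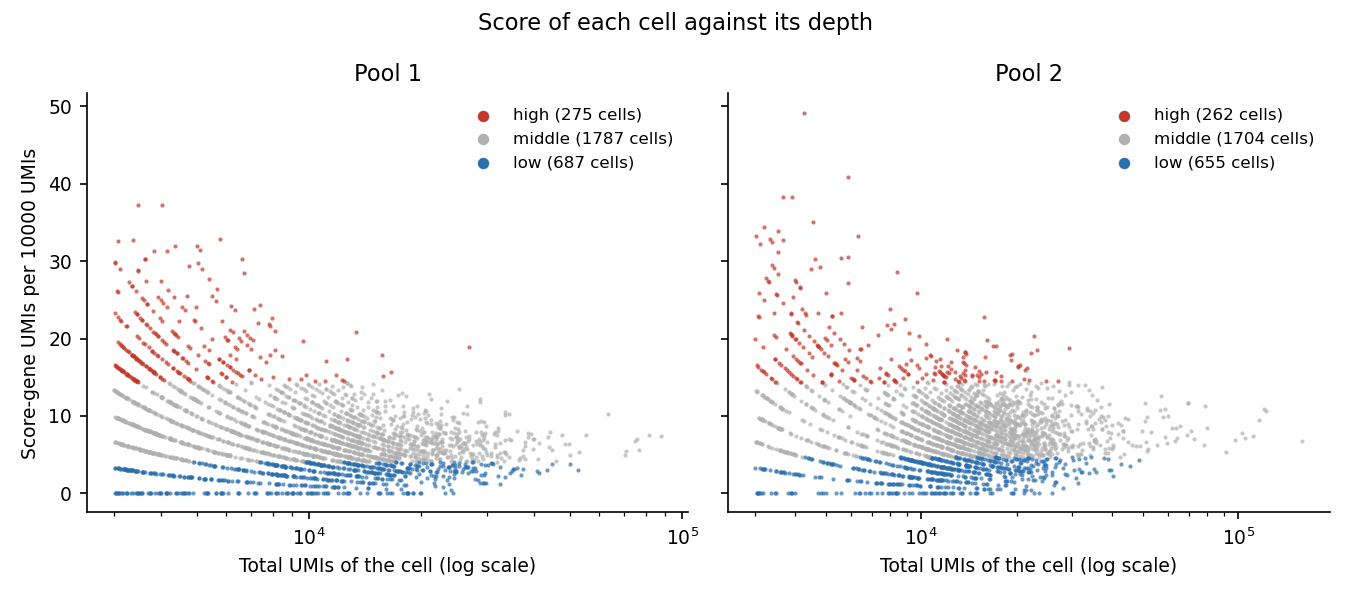
Score-gene UMIs per 10000 UMIs (y axis) against total UMIs (x axis, log scale) for each kept cell, 1 panel a pool, coloured by group. Curved rows of points are cells with the same whole number of score UMIs, and high cells gather at low depth.

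As a description of what chose the cells, the 5 score genes summed to 1928 and 1783 CPM in high cells of pools 1 and 2, 738 and 847 CPM in middle cells, and 244 and 282 CPM in low cells. To count UMIs that had no part in the choice, cells were also chosen on other UMIs. When cells were chosen on a random subset of UMIs, drawn with probability 0.5, and the other UMIs were counted, the sums were 1336 and 1309 CPM in high cells, 696 and 833 CPM in middle cells, and 430 and 432 CPM in low cells. The ratio of high to low was then 3.11 and 3.03, against 7.9 and 6.31 with the same UMIs used for both. All 5 genes gave UMIs to the score, from 12.2% (Etv5) to 31.2% (Spry1) of score UMIs in pool 1 and from 13.1% to 26.2% in pool 2.

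Each score gene could be tested in cells chosen by the other 4, where it had no part in the choice. Dusp6, the ERK phosphatase, was at 223 and 259 CPM in high cells chosen by the other 4 genes, 108 and 154 CPM in middle cells, and 63.8 and 77.2 CPM in low cells. Its log2 fold change, high over low, was 1.60 ± 0.16 (SE; edgeR quasi-likelihood test, adjusted p = 0.00351), and 1.37 ± 0.09 in balanced cells (edgeR adjusted p = 8.84e-05). Spry4 was at 368 and 331 CPM in high cells and at 97.3 and 115 CPM in low cells, a log2 fold change of 1.58 ± 0.16 (edgeR adjusted p = 0.00515; balanced 1.34 ± 0.07). Both genes stood higher in high cells than in low cells in each pool.

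Spry1 was at 339 and 319 CPM in high cells and at 148 and 127 CPM in low cells, a log2 fold change of 1.08 ± 0.18 (edgeR adjusted p = 0.0184; balanced 0.93 ± 0.11). The 2 ETS factors gave smaller values. Etv5 was at 148 and 123 CPM in high cells and at 62.5 and 81.5 CPM in low cells, a log2 fold change of 0.74 ± 0.18 (edgeR adjusted p = 0.0401; balanced 0.55 ± 0.09). Etv4 was at 125 and 160 CPM in high cells and at 86 and 93.9 CPM in low cells, a log2 fold change of 0.47 ± 0.17 that did not pass (edgeR adjusted p = 0.0977); in balanced cells it was 0.64 ± 0.10 and passed (edgeR adjusted p = 0.0041). In these 5 fits between 4.12% and 9.89% of the other genes were also called higher. Against middle cells Dusp6 passed in both choices of cells (log2 0.74 ± 0.15, edgeR adjusted p = 0.0443; balanced 0.55 ± 0.09, adjusted p = 0.0236), Spry4 passed in balanced cells (0.53 ± 0.07, adjusted p = 0.0228), and Spry1, Etv4 and Etv5 passed in neither.

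**Figure D2:**
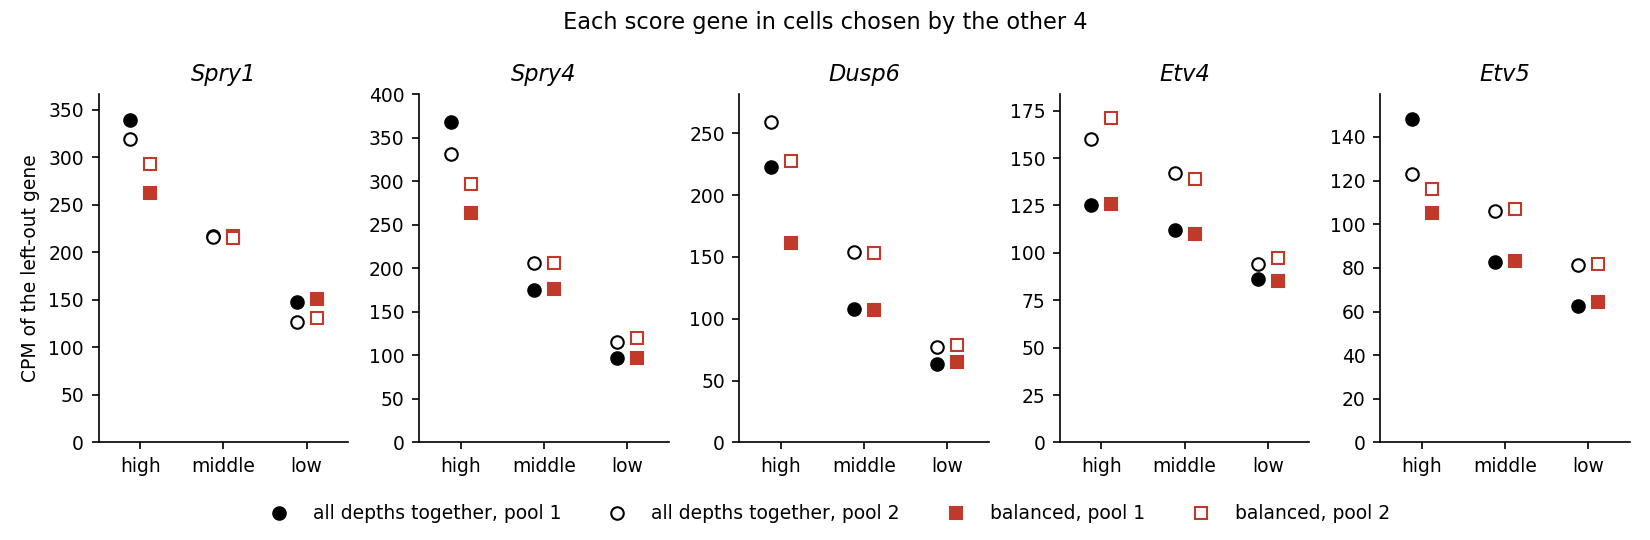
CPM (y axis, from 0) of each score gene in high, middle and low cells chosen by the other 4 genes (x axis); 1 point is the summed UMIs of 1 pool. Circles are cells ranked over all depths together, squares cells balanced for depth and Malat1 share; filled points are pool 1, open points pool 2. Every gene stands higher in high than in low cells of its pool, most for Dusp6 and Spry4.

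Across all genes other than the 5, 13550 were tested in high against low cells. The edgeR test called 946 higher (6.98%) and 943 lower (6.96%), and in balanced cells 898 of 13398 higher (6.7%) and 1125 lower (8.4%). Within bins of depth alone 6.63% of genes were higher and 7.88% lower. Both choices of cells called 1216 genes in the same direction, 64.4% of the first set and 60.1% of the second. High and low cells came from the same 2 pools, so p-values measure how far a difference varied between pools, with 2 residual degrees of freedom, and do not extend to other tumours. Fold changes from the fit are relative to the bulk of genes (TMM scaling, median log2 of all genes -0.02); scaling by total UMIs alone moved that median to 0.16 and the calls to 1868 higher (13.8%) and 891 lower (6.58%). For the same reason a ratio of the printed CPM can lie above the fitted fold change.

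Of 28 other ERK feedback and output genes, 22 passed the filter on low counts. In high against low cells 5 of the 22 were called higher (22.7%, against 6.98% of all genes) and 0 lower, with a median log2 fold change of 0.53 against -0.02 over all genes. In balanced cells 9 were higher (40.9%, against 6.7%) and 1 lower, with a median of 0.50. Of the 5 called over all depths, Spry2 and 3 Spred genes are further brakes on the pathway. Spry2, the Sprouty family member left out of the score (chr14:105891947-105896819), was at 276 and 292 CPM in high cells, against 79.7 and 83.1 CPM in low cells. Its log2 fold change was 1.61 ± 0.18 (edgeR adjusted p = 0.0155; balanced 1.31 ± 0.11). Both pools gave nearly the same levels in each group, and the groups stood more than 3-fold apart.

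The 3 Spred genes, whose proteins hold back RAS and RAF activation, all rose. Spred3 was at 112 and 64.7 CPM in high cells and at 31.8 and 30.4 CPM in low cells (log2 1.26 ± 0.17, edgeR adjusted p = 0.018; balanced 0.94 ± 0.10). Spred1, the gene lost in Legius syndrome in humans, was at 570 and 337 CPM in high cells and at 209 and 201 CPM in low cells (log2 0.91 ± 0.21, edgeR adjusted p = 0.0438; balanced 0.51 ± 0.08). Spred2 was at 112 and 95.7 CPM in high cells and at 49.9 and 56.8 CPM in low cells (log2 0.76 ± 0.15, edgeR adjusted p = 0.0308; balanced 0.45 ± 0.10). Low cells were nearly level between pools for all 3, while high cells of pool 1 lay above those of pool 2. In balanced high cells of pool 1 Spred3 was at 70.9 CPM and Spred1 at 346 CPM. Ier3, an early response gene phosphorylated by ERK, was at 75.5 and 77.3 CPM in high cells and at 26.2 and 43.6 CPM in low cells (log2 0.96 ± 0.18, edgeR adjusted p = 0.0287; balanced 1.13 ± 0.18).

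Among genes that carry the signal outward, several passed only once cells were balanced; whether the 2 choices of cells differ was not tested. Ccnd1, which encodes cyclin D1 and is induced downstream of ERK, was at 3150 and 2865 CPM in balanced high cells, against 1875 and 1951 CPM in balanced low cells (log2 0.60 ± 0.06, edgeR adjusted p = 0.000443), and did not pass when all depths were ranked together (log2 0.32 ± 0.24, adjusted p = 0.362). Phlda1 behaved alike, with 448 and 513 CPM in balanced high cells and 302 and 290 CPM in balanced low cells (log2 0.64 ± 0.09, edgeR adjusted p = 0.00286; unbalanced 0.27 ± 0.23). The ETS factor Etv1 had a log2 fold change of 0.41 ± 0.08 in balanced cells (edgeR adjusted p = 0.0113; unbalanced 0.43 ± 0.17, adjusted p = 0.125), and the adaptor Shc4 0.57 ± 0.11 (adjusted p = 0.00939; unbalanced 0.73 ± 0.19, adjusted p = 0.0526). The ephrin receptor gene Epha4 was the 1 member called lower, and passed in balanced cells (log2 -0.70 ± 0.16, edgeR adjusted p = 0.0202; unbalanced -0.38 ± 0.19, adjusted p = 0.193); without the cells that carried markers of differentiated oligodendrocytes or immune cells it did not pass (balanced -0.44, adjusted p = 0.116), and its sign depended on which cells were kept. Further genes of the list that did not pass in either choice were the phosphatase genes Dusp4 (log2 0.67 ± 0.33) and Dusp5 (0.79 ± 0.38), with 31 and 17 UMIs in high cells, and the growth regulator Myc (0.33 ± 0.23).

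**Figure D3:**
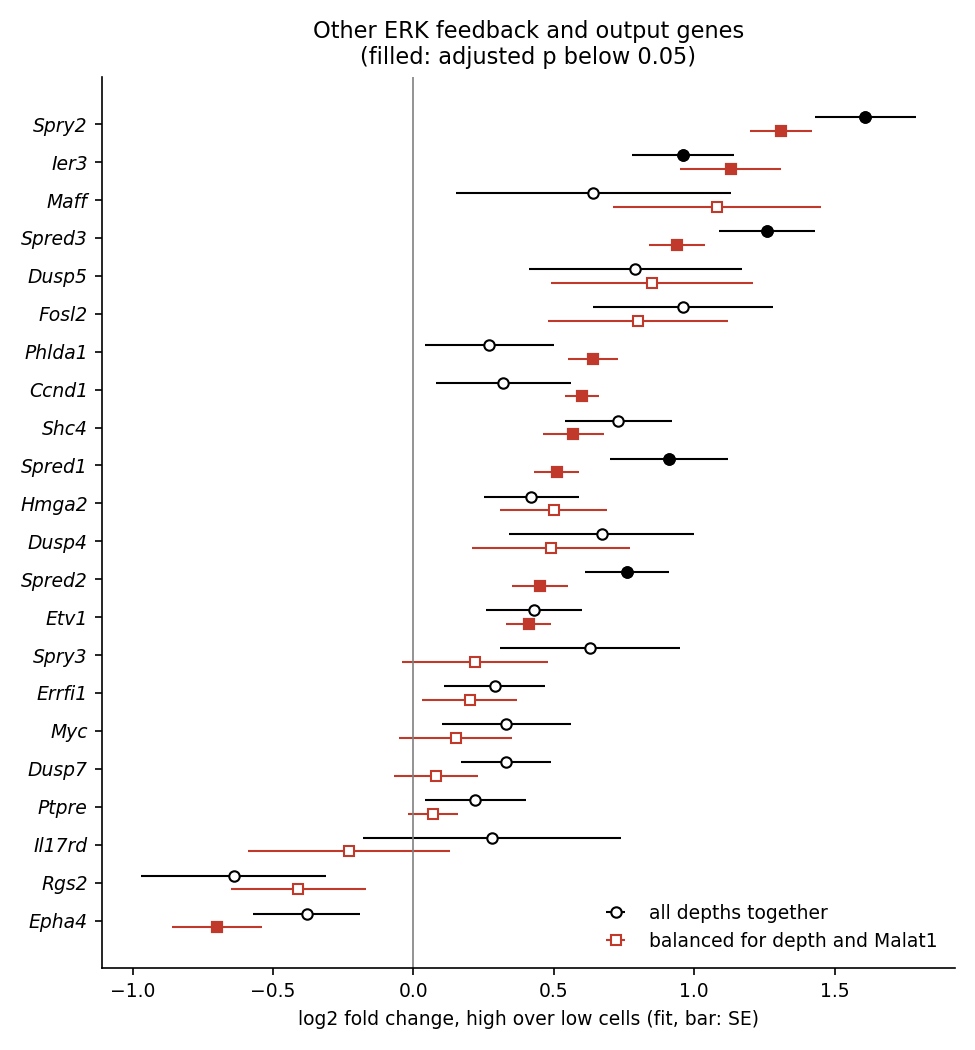
Fitted log2 fold change, high over low cells (x axis, bars SE), of the 22 tested genes of the list of other ERK feedback and output genes (1 row each); circles are cells ranked over all depths together, squares balanced cells, filled where the adjusted p was below 0.05. Spry2, Ier3 and the 3 Spred genes are filled in both choices, and Epha4 is filled on the left of 0 in balanced cells.

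Immediate early genes, transcription factor and regulator genes that respond within minutes to ERK and other signals, were counted next. Of 23 tested, 4 were higher (17.4%, against 6.98% of all genes) and 1 lower (4.35%, against 6.96%), and 8 were higher (34.8%, against 6.7%) and 0 lower in balanced cells. Egr1 was at 410 and 489 CPM in high cells and at 181 and 225 CPM in low cells (log2 0.95 ± 0.19, edgeR adjusted p = 0.0323; balanced 1.01 ± 0.08). Egr3 was at 47.2 and 59.3 CPM in high cells and at 14.4 and 26.9 CPM in low cells (log2 1.20 ± 0.15, edgeR adjusted p = 0.0173; balanced 1.03 ± 0.13). In each pool both genes stood higher in high than in low cells, by about the same factor with and without balancing. The nuclear receptor gene Nr4a1 (log2 0.82 ± 0.18) and Klf6 (0.71 ± 0.16) also rose, and the antiproliferative gene Btg2 was lower (-0.86 ± 0.20, edgeR adjusted p = 0.0448) and did not pass when balanced (-0.54 ± 0.20, adjusted p = 0.108). Dissociation of tissue is known to induce immediate early genes, and its part in the result was not tested. The separate list of heat shock and dissociation stress genes summed to 2921 and 3152 CPM in high cells, against 5429 and 4803 CPM in low cells. In balanced cells it summed to 4159 and 3512 CPM in high cells, against 5341 and 4770 CPM in low cells.

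Upstream of ERK, growth factor receptor genes were among those that rose. Of 27 tested receptor tyrosine kinase and ligand genes, 9 were higher (33.3%, against 6.98% of all genes) and 1 lower (3.7%), and 8 were higher (29.6%, against 6.7%) and 2 lower (7.41%) in balanced cells. Pdgfra, the receptor that PDGFB activates, was at 2616 and 1980 CPM in high cells, 1254 and 1264 CPM in middle cells, and 917 and 1068 CPM in low cells (high over low log2 1.01 ± 0.24, edgeR adjusted p = 0.0448; balanced 0.57 ± 0.07, adjusted p = 0.00141). Insr, the insulin receptor gene, was at 152 and 111 CPM in high cells and at 42.6 and 48.4 CPM in low cells (log2 1.32 ± 0.17, edgeR adjusted p = 0.0173; balanced 0.84 ± 0.11). Fgfr1 was at 122 and 119 CPM in high cells and at 53.3 and 58 CPM in low cells (log2 0.92 ± 0.15, edgeR adjusted p = 0.0236; balanced 0.66 ± 0.10), and Igf1r had a log2 fold change of 0.91 ± 0.17 (balanced 0.46 ± 0.11). For all 4 receptor genes the difference was smaller in balanced cells and still passed.

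The ligand genes went separate ways. Pdgfb was at 49.3 and 45.8 CPM in high cells, against 24.4 and 22.7 CPM in low cells (log2 0.82 ± 0.15, edgeR adjusted p = 0.0291; balanced 0.63 ± 0.18, adjusted p = 0.0429). These UMIs may come from the introduced gene or the mouse gene, which cannot be told apart here. Pdgfa, another Pdgfra ligand, was at 24.7 and 22.9 CPM in high cells and at 43.4 and 37.8 CPM in low cells (log2 -0.95 ± 0.17, edgeR adjusted p = 0.0272; balanced -0.68 ± 0.15). Cells that carried markers of differentiated oligodendrocytes or immune cells, 47 and 48 low and 13 and 17 middle cells, were also removed. The groups were then formed again from the remaining cells. The Pdgfa difference was then -0.36 and no longer passed (edgeR adjusted p = 0.203), and the Pdgfb difference was 0.78 (adjusted p = 0.0354).

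Of 42 tested genes of the RAS to ERK cascade and its adaptors, 8 were higher (19%, against 6.98% of all genes) and 1 lower, and 8 were higher (19%, against 6.7%) and 0 lower in balanced cells. Elk3, an ETS factor that ERK phosphorylates, was at 63.1 and 63.4 CPM in high cells and at 29.7 and 39.1 CPM in low cells (log2 0.69 ± 0.14, edgeR adjusted p = 0.0322; balanced 0.63 ± 0.11). Rps6ka3, which encodes the ERK-activated kinase RSK2, had a log2 fold change of 0.67 ± 0.13 (edgeR adjusted p = 0.033; balanced 0.62 ± 0.10). Braf, which encodes a RAF kinase, lost its call when balanced (log2 0.72 ± 0.14; balanced 0.35 ± 0.10, edgeR adjusted p = 0.0502). Mapk3, the gene of ERK1 itself, was lower (-0.87 ± 0.18, edgeR adjusted p = 0.0353) and did not pass when balanced (-0.30 ± 0.14, adjusted p = 0.173).

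Lineage markers were compared next. Oligodendrocyte precursor markers split: 1 of 15 was higher (6.67%) and 2 lower (13.3%), and 6 were higher (40%) and 2 lower (13.3%) in balanced cells, against 6.7% and 8.4% of all genes. Cspg4, the gene of the NG2 proteoglycan that marks these precursors, was at 719 and 587 CPM in balanced high cells and at 428 and 434 CPM in balanced low cells (log2 0.54 ± 0.08, edgeR adjusted p = 0.00438; unbalanced 0.80 ± 0.21, adjusted p = 0.053). Gpr17, a receptor gene of precursors that are about to differentiate, was at 294 and 75 CPM in high cells and at 412 and 311 CPM in low cells (log2 -1.41 ± 0.35, edgeR adjusted p = 0.0477; balanced -1.88 ± 0.23). The fall in Gpr17 was larger in pool 2. C1ql1 was lower over all depths (log2 -1.05 ± 0.22, edgeR adjusted p = 0.035; balanced -0.70 ± 0.22, adjusted p = 0.0654), and Neu4 in balanced cells (-1.24 ± 0.18, adjusted p = 0.00313; unbalanced -0.60 ± 0.27).

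Markers of committed precursors, the step at which these cells leave division and begin to form myelin, were lower in 9 of 12 (75%, against 6.96% of all genes) and in 10 of 12 balanced. Summed, they were at 780 and 709 CPM in high cells, 605 and 664 CPM in middle cells, and 1404 and 1095 CPM in low cells, so high cells stood below low cells and not below middle cells. Enpp6, a phosphodiesterase gene of newly forming oligodendrocytes (chr8:46986887-47096762), had 0 UMIs in all 537 high cells, against 94.6 and 62.5 CPM in low cells, so its level was at least 94-fold lower in high cells, taking a floor of 3 UMIs over both pools. Bmp4 had 1 UMI in high cells, and its level in low cells was 83.4 times that in high cells (95% counting interval 14.9 to 3303). Bfsp2 was at 3.63 and 0.449 CPM in high cells and at 39.1 and 28.8 CPM in low cells, and Fa2h, which makes hydroxylated myelin lipids, at 13.1 and 3.59 CPM in high cells and 36.4 and 31.3 CPM in low cells.

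Mature oligodendrocyte markers were lower in 13 of 13 in both choices of cells (100%, against 6.96% of all genes and 8.4% balanced). Summed, they were at 235 and 294 CPM in high cells, 322 and 396 CPM in middle cells, and 3090 and 4829 CPM in low cells. Mog had 0 UMIs in high cells, at least 46.9-fold below low cells, and Mal had 2, with a level in low cells 297 times that in high cells (95% counting interval 82.2 to 2456). Counting intervals cover counting error only. Mag, Mobp, Ermn and Trf had log2 fold changes of -6.42 ± 0.42, -6.18 ± 0.54, -4.82 ± 0.50 and -3.61 ± 0.23. Ptgds was at 2.18 and 5.39 CPM in high cells and at 134 and 792 CPM in low cells, and Apod at 0.726 and 3.15 CPM in high cells and 8.8 and 706 CPM in low cells, so pool 2 held most of the RNA of both genes.

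A rule chosen after seeing the data counted cells that carried several of these markers. Cells with a UMI of each of at least 3 of 15 oligodendrocyte differentiation or immune genes made up 0 of 275 and 0 of 262 high cells, which allows up to 1.09% and 1.15%, 0.727% and 0.998% of middle cells, and 6.84% (95% Clopper-Pearson interval 5.07 to 8.99) and 7.33% (5.45 to 9.6) of low cells. High cells were shallower, and among balanced cells the shares were 1.09% and 0% in high cells and 6.69% and 7.63% in low cells. Those cells were then removed and the groups formed again from the remaining cells. In these groups 2 of 9 tested mature markers and 3 of 12 committed precursor markers were lower, against 6.81% of all genes (1 of 9 and 6 of 12 when also balanced, against 7.73%). Apod (log2 -0.01), Ptgds (-0.52), Mobp (-0.79), Ermn (0.30) and Trf (0.70) then no longer passed, while Bmp4 (edgeR adjusted p = 0.031) and Enpp6 (adjusted p = 0.0332) still passed. All of these genes but Trf are among the 15 genes of the rule. Cells were thus removed for carrying their UMIs, and their values after removal are no separate test. Microglia and macrophage markers summed to 30.5 and 21.1 CPM in high cells and 107 and 496 CPM in low cells. Of 12 tested, 1 was called lower (8.33%, near the 6.96% of all genes), Trem2, with 0 UMIs in high cells (edgeR adjusted p = 0.0472). In balanced cells 8 were lower (66.7%, against 8.4% of all genes). Within bins of depth alone 0 of 13 were called, with a median log2 fold change of -1.80. Tyrobp was also at 0 UMIs, against 9.27 and 34.5 CPM in low cells, and did not pass (adjusted p = 0.0528). After the marked cells were removed, the called ERK, receptor and cascade genes changed little in number: 5 of 22 other ERK genes, 8 of 26 receptor and ligand genes and 8 of 42 cascade genes were higher, against 6.92% of all genes (6.56% when also balanced). Pdgfra then had a log2 fold change of 0.90 (edgeR adjusted p = 0.0524), and passed when also balanced (adjusted p = 0.00251).

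Division genes were lower in high cells. Of 33 S phase genes 30 were lower (90.9%, against 6.96% of all genes) and 33 of 33 in balanced cells, and of 39 G2/M genes 28 were lower (71.8%) and 34 in balanced cells. Within bins of depth alone 32 S phase genes were lower and only 8 G2/M genes (20.5%), with a median log2 fold change of -1.65 for the G2/M list. The 10 core cycling genes, each also in 1 of those lists, were lower in 8, in 10 when balanced and in 3 within bins of depth alone. In none of these lists was a gene called higher. Mcm5, part of the helicase that opens DNA for replication, was at 18.1 and 11.7 CPM in high cells, 41.4 and 31.7 CPM in middle cells, and 65 and 46.5 CPM in low cells (high over low log2 -2.11 ± 0.17, edgeR adjusted p = 0.0121; balanced -1.93 ± 0.13). Mcm3 (-1.98 ± 0.16) and Mcm7 (-1.60 ± 0.15) of the same helicase fell with it. Pcna, the sliding clamp of DNA polymerase, was at 72.6 and 57.5 CPM in high cells and at 173 and 168 CPM in low cells (log2 -1.59 ± 0.17, edgeR adjusted p = 0.0154; balanced -1.48 ± 0.10).

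Of mitotic genes, Birc5, which encodes survivin, was at 31.2 and 10.8 CPM in high cells and at 99.3 and 88.2 CPM in low cells (log2 -2.49 ± 0.27, edgeR adjusted p = 0.0155; balanced -1.81 ± 0.25). Aurkb, a mitotic kinase gene, had a log2 fold change of -2.67 ± 0.29, Hmgb2 of -2.15 ± 0.24 and Cks1b of -1.89 ± 0.18. The summed G2/M list separated the pools more than the S phase list did: it was at 2175 and 730 CPM in high cells, against 3976 and 3787 CPM in low cells, while S phase genes were at 792 and 596 CPM, against 1753 and 1446 CPM.

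Counted per cell after thinning each cell to 3000 UMIs, cells with UMIs of at least 2 of 10 core cycling genes made up 19.3% of high cells (95% Clopper-Pearson interval 14.8 to 24.4), 21.3% of middle cells and 23.7% of low cells (20.6 to 27.1) in pool 1. In pool 2 they were 7.63% of high cells (4.72 to 11.5), 13.4% of middle cells and 19.2% of low cells (16.3 to 22.5). These intervals cover the sampling of cells within 1 library only, and cells are not replicates. Balanced cells gave 19.7% of high and 21.8% of low cells in pool 1, and 6.51% and 20% in pool 2. A count over 2 pools cannot reach p below 0.05 in an exact test, so none is given.

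Cell cycle entry genes and CDK inhibitors were divided. None of 15 was higher and 6 were lower (40%, against 6.96% of all genes); 3 were higher (20%) and 6 lower in balanced cells. Ccne2, cyclin E2, which acts at the start of S phase, was at 10.2 and 5.39 CPM in high cells and at 25.9 and 20.9 CPM in low cells (log2 -1.84 ± 0.22, edgeR adjusted p = 0.0165; balanced -2.17 ± 0.25). Cdk4, the partner kinase of cyclin D1, was at 129 and 162 CPM in high cells and at 328 and 281 CPM in low cells (log2 -1.24 ± 0.25, edgeR adjusted p = 0.0326), and the difference was smaller in balanced cells (-0.43 ± 0.08, adjusted p = 0.00786). The inhibitor genes Cdkn1c, at 2.9 and 0.449 CPM in high cells and 15.7 and 7.12 CPM in low cells (log2 -3.11 ± 0.59), and Cdkn2c (-0.85 ± 0.17) were lower as well. Ccnd1, also of this list, rose in balanced cells as given above.

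**Figure D4:**
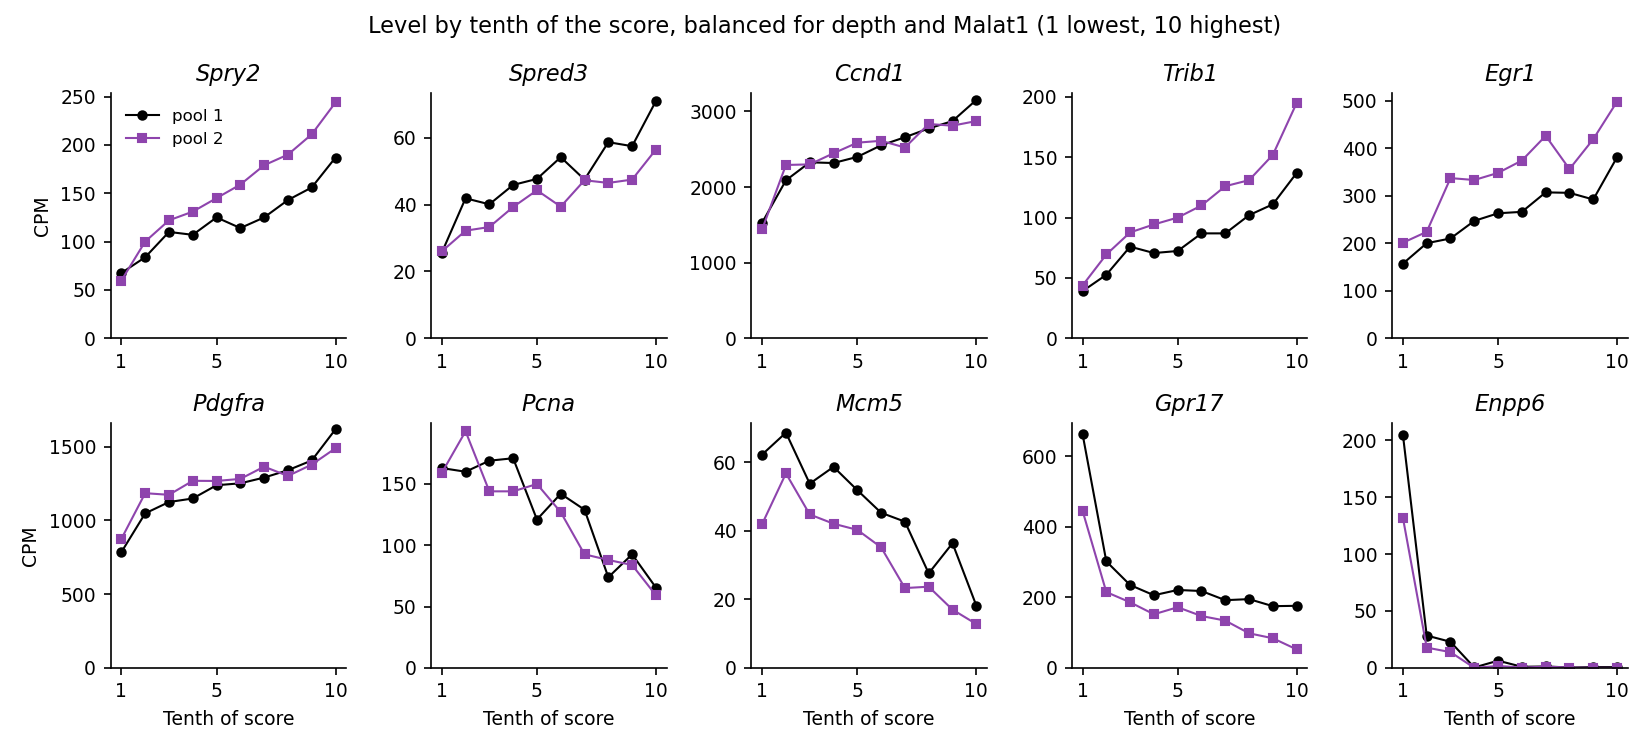
CPM (y axis, from 0) of 10 genes in 10 equal bins of the score from lowest (1) to highest (10), formed within bins of depth and Malat1 share; 1 line a pool, each point the summed UMIs of 260 to 279 cells. Spry2, Trib1 and Egr1 climb over most of the range, Pcna and Mcm5 decline over it, and Enpp6 and Gpr17 drop mainly at the lowest bins.

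The bins of balanced score show where along the score each gene moved, as a description. Spry2 went in pool 2 through 59.7, 145 and 244 CPM at bins 1, 5 and 10, and in pool 1 through 67.5, 125 and 187 CPM. Mcm5 stood at 62.3, 51.9 and 18.2 CPM in pool 1 and at 42, 40.3 and 12.8 CPM in pool 2 at the same bins, so its decline lay mostly in the upper part of the score. Enpp6 was at 205, 6.3 and 0.686 CPM in pool 1 and at 132, 1.63 and 0 CPM in pool 2, and thus separated the lowest bin from the others. Ccnd1 stood at 1529, 2399 and 3152 CPM in pool 1 and at 1441, 2587 and 2873 CPM in pool 2.

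Synaptic and channel genes described in gliomas were higher in 13 of 29 tested (44.8%, against 6.98% of all genes) and in 17 of 29 balanced (58.6%, against 6.7%), and none was lower. Kcnd3, a potassium channel gene, was at 226 and 187 CPM in high cells and at 86.6 and 92.1 CPM in low cells (log2 1.01 ± 0.16, edgeR adjusted p = 0.0236; balanced 0.68 ± 0.09). Kcnma1, the calcium-activated BK channel gene, had a log2 fold change of 0.91 ± 0.14 (balanced 0.66 ± 0.13), the calcium channel gene Cacna1e 1.13 ± 0.15 (balanced 0.55 ± 0.13) and the postsynaptic scaffold gene Shank1 1.09 ± 0.22 (balanced 0.66 ± 0.17), and these 3 passed in both. The sodium channel gene Scn1a did not pass when balanced (1.01 ± 0.18; balanced 0.38 ± 0.12, edgeR adjusted p = 0.0646). In balanced cells the median of the list was 0.40, against 0.71 over all depths.

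In the Notch pathway 2 of 12 tested genes were higher (16.7%, against 6.98% of all genes) and 1 lower (8.33%, near the 6.96% of all genes), and 3 were higher (25%) and 1 lower (8.33%) in balanced cells. Hes1, a Notch target that represses differentiation genes, was at 81.3 and 129 CPM in high cells and at 36 and 55.4 CPM in low cells (log2 1.02 ± 0.16, edgeR adjusted p = 0.023; balanced 0.93 ± 0.10). The ligand gene Jag1 was at 15.2 and 27 CPM in high cells and at 6.57 and 7.46 CPM in low cells (log2 1.45 ± 0.27, edgeR adjusted p = 0.0295; balanced 1.15 ± 0.19), and the target Hey2 was lower (-1.08 ± 0.26; balanced -1.08 ± 0.22). Cholesterol synthesis genes were higher in 3 of 23 (13%, against 6.98% of all genes) and in 5 of 23 balanced (21.7%, against 6.7%). The summed cholesterol list was at 1585 and 2641 CPM in high cells, against 1515 and 1754 CPM in low cells, so pool 2 showed the larger difference.

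Markers of other neural lineages gave no common direction. Of 15 astrocyte and radial glia markers 1 was higher (6.67%, near the 6.98% of all genes) and 4 lower (26.7%), and 2 were higher and 2 lower (13.3% each) in balanced cells. Slc1a2, a glutamate transporter gene, was at 956 and 767 CPM in high cells and at 418 and 425 CPM in low cells (log2 0.83 ± 0.20, edgeR adjusted p = 0.0476; balanced 0.62 ± 0.07). Vim, vimentin, was lower over all depths (-1.27 ± 0.29, edgeR adjusted p = 0.0414) and not when balanced (-0.09 ± 0.10, adjusted p = 0.603), and the gap junction gene Gja1 had 0 UMIs in high cells, at least 6.57-fold below low cells. None of 2 tested vascular markers passed, and no erythroid marker passed the filter on low counts. Balanced high cells of pool 2 held 666 CPM of erythroid markers, against 0.265 CPM in balanced middle and 0.108 CPM in balanced low cells. Over all depths, the middle cells of pool 2 held 85.3 CPM and the high cells 0 CPM. The erythroid RNA thus changed group with the choice of cells, and how many cells carried it was not counted. Of 8 neuron markers 2 were higher (25%, against 6.98% of all genes), Snap25 (log2 0.95 ± 0.18; balanced 0.79 ± 0.13) and Gad1 (1.08 ± 0.25; balanced 0.60 ± 0.17).

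Of stress and metabolic lists, hypoxia genes had 1 higher (5.88%) and 5 lower (29.4%) of 17 (balanced 1 and 4), against 6.98% and 6.96% of all genes. Of 14 p53 targets 1 was higher (7.14%, near the share of all genes) and 0 lower (balanced 2 and 0). Of 17 interferon response genes 0 were higher and 5 lower (29.4%), with 1 lower when balanced and 0 within bins of depth alone. The hypoxia gene Ndrg1 had 1 UMI in high cells, with a level in low cells 62.9 times that in high cells (95% counting interval 11.2 to 2491); it is also a myelin gene, and it failed the filter on low counts once the marked cells were removed. Trp53inp1, the p53 target that rose, had a log2 fold change of 0.91 ± 0.17 (edgeR adjusted p = 0.029; balanced 0.66 ± 0.10). Heat shock genes were lower in 2 of 11 (18.2%; balanced 7, or 63.6%, with 1 higher) and translation and MYC genes in 2 of 14 (14.3%; balanced 5, or 35.7%). Hspe1, a mitochondrial co-chaperonin gene, was at 240 and 267 CPM in high cells and at 561 and 487 CPM in low cells (log2 -1.23 ± 0.24; balanced -0.59 ± 0.07), Hsp90aa1 had -1.02 ± 0.24 (balanced -0.63 ± 0.09) and Npm1, a nucleolar gene, -1.27 ± 0.31 (balanced -0.52 ± 0.07). For these 3 genes the difference was smaller in balanced cells and still passed. None of 5 nuclear-retained RNAs and none of 4 Y-linked genes passed in either choice, and 1 of 2 female-linked RNAs was higher over all depths and 0 in balanced cells.

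**Figure D5:**
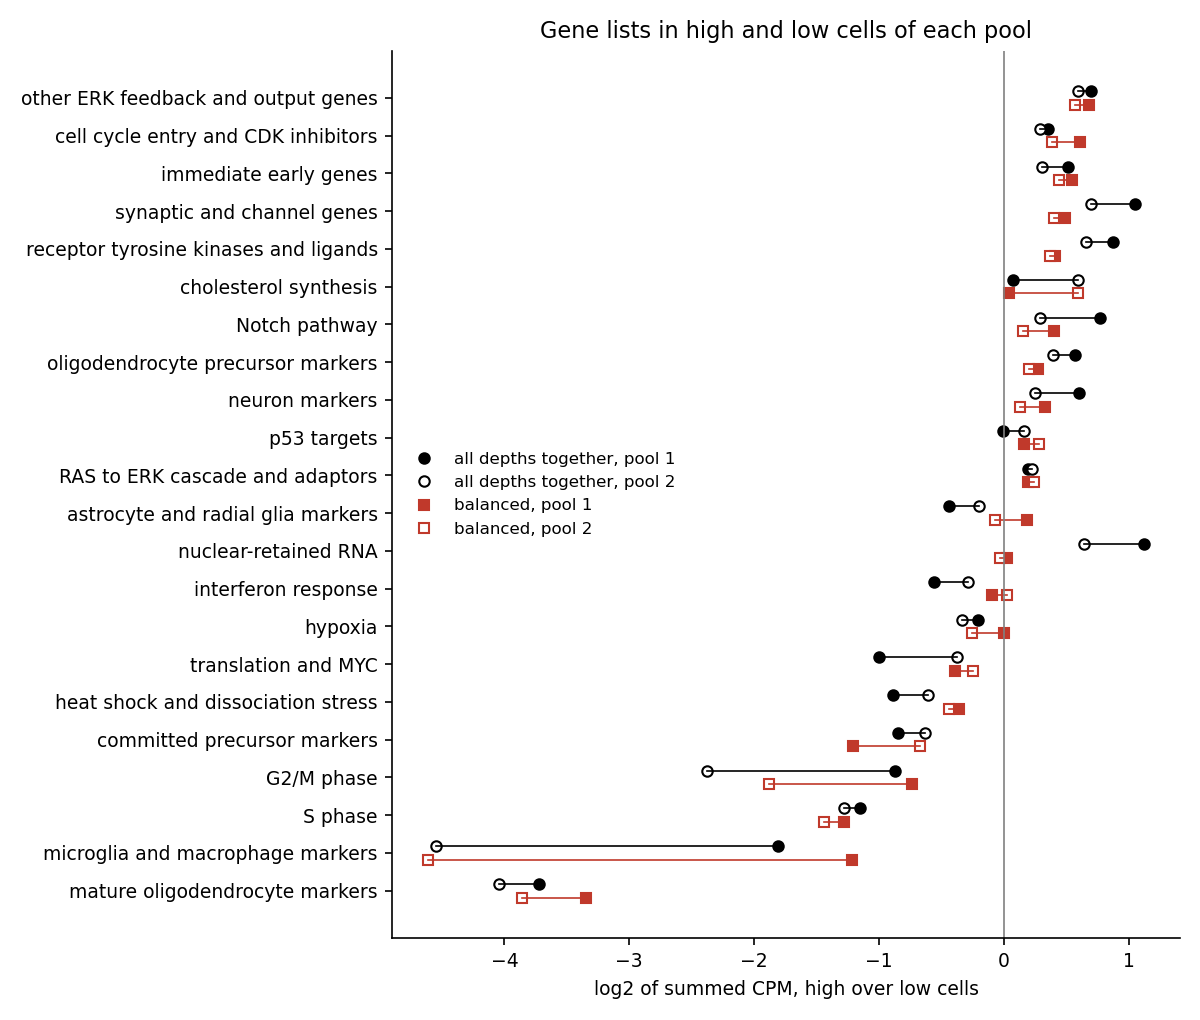
Log2 ratio of summed CPM, high over low cells (x axis), of gene lists (1 row each); black circles are cells ranked over all depths together, red squares balanced cells, filled for pool 1 and open for pool 2. Nuclear-retained RNA, led by Malat1, lies at about 0 in balanced cells because these were matched on the Malat1 share. S phase, G2/M and mature oligodendrocyte lists stay on the left and other ERK genes on the right in both pools.

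The 12 genes of largest fold each way, among those past the threshold, on the same side in both pools (log2 CPM with a prior count of 1) and at 20 CPM or more in the higher group, were named by that rule alone. Trib1, which encodes a pseudokinase scaffold that binds MEK (chr15:59648350-59657099), was at 218 and 227 CPM in high cells, 87.2 and 117 CPM in middle cells, and 50.3 and 60.9 CPM in low cells (high over low log2 1.81 ± 0.16, edgeR adjusted p = 0.0136; balanced 1.49 ± 0.10, adjusted p = 7.83e-05). Ptgfrn, a tetraspanin partner gene, was at 247 and 306 CPM in high cells and at 61 and 52.5 CPM in low cells (log2 2.08 ± 0.23; balanced 1.64 ± 0.23). Fzd1, a Wnt receptor gene, was at 61.7 and 71.9 CPM in high cells and at 15.5 and 13.8 CPM in low cells (balanced log2 1.37 ± 0.24). In these 3 genes both pools moved by a similar factor.

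Lfng, a glycosyltransferase gene that tunes Notch receptors, was at 7.26 and 42.2 CPM in high cells and at 3.29 and 5.54 CPM in low cells (log2 2.32 ± 0.40, edgeR adjusted p = 0.0269; balanced 2.16 ± 0.31), and Jade2 at 9.43 and 44.5 CPM in high cells and 2.35 and 8.93 CPM in low cells (log2 2.11 ± 0.21; balanced 1.67 ± 0.22). For both, pool 2 was the higher pool in either group. Gpr179, Phka1, Nwd1, Pgbd5 and the unplaced gene model Gm50012 had log2 fold changes from 1.71 to 2.24 and from 1.15 to 1.81 when balanced. The antisense gene Gm15594 (1.77 ± 0.19) did not pass when balanced (0.45 ± 0.20, edgeR adjusted p = 0.17), and how its reads were told from those of the gene on the other strand is not given in the labels. The gene model 9130230L23Rik had 0 UMIs in high and low cells of pool 1, and 60.2 CPM in high cells against 0.339 CPM in low cells of pool 2, so it rests on pool 2 alone; the prior count gives it a side in pool 1, where no difference was measured. On the lower side the genes included Enpp6, Bmp4, Mog, Mal, Apod, Ptgds, Mag, Mobp and Ermn, given above, and the noncoding gene models 9530059O14Rik and 9630013A20Rik, with 3 and 4 UMIs in high cells.

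Against middle cells, edgeR called 0 genes (0%) over all depths, with 4036 of 13550 at an unadjusted p under 0.05 and a smallest adjusted p of 0.0833; DESeq2 called 945. In balanced cells edgeR called 22 genes higher (0.164%) and 124 lower (0.926%). S phase genes made up 23 of the 124 lower calls and G2/M genes 10, of 33 and 39 tested. Within bins of depth alone edgeR called 0 of 13444 genes higher and 0 lower than in middle cells. The median log2 fold change there was -1.16 for the S phase list and -1.40 for the G2/M list, with no gene called. The edgeR calls against middle cells in this paragraph thus come from the balanced choice. Left-out Dusp6, given above, also passed over all depths, and counts under other settings are given in the last section. Mcm5 was at 18.2 and 12.7 CPM in balanced high cells and at 44.2 and 31.4 CPM in balanced middle cells (log2 -1.33 ± 0.13, edgeR adjusted p = 0.00409), and Pcna had a log2 fold change of -0.99 ± 0.09 (adjusted p = 0.00395). Trib1 (0.67 ± 0.09, edgeR adjusted p = 0.0176) and Egr1 (0.42 ± 0.08, adjusted p = 0.0489) were among the 22 higher genes, and were singled out after their values were seen. None of 22 other ERK genes passed here, with Spry2 at 0.52 ± 0.11 (edgeR adjusted p = 0.0577) and a list median of 0.18, and none of the precursor, oligodendrocyte or microglia markers passed. Without the marked cells, 38 genes were higher (0.287%) and 184 lower (1.39%) in balanced cells.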

How the data were processed

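Per the labels' protocols, sorted cells were captured with the 10x Genomics Next GEM 3ʹ kit, version 3.1, with 4000 cells used for partitioning, and per the submitters' processing notes Cell Ranger 6.0.2 and the builds GRCm38 and mm10 were used. The authors deposited raw UMI counts per gene and barcode, 1 table per pool, with no normalization; the sources used here do not state cell filters. Of 18366 symbols 18043 matched 1 gene of GENCODE vM21 (GRCm38), which gave positions.

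The rule on cells, score and groups is in the report; ties were broken by barcode, and doublets were not removed. UMIs were summed per pool and group, which gave 6 sums for 1 edgeR quasi-likelihood fit with pool and group as terms (4 coefficients, 2 residual degrees of freedom; TMM, filterByExpr). Adjusted p-values are Benjamini-Hochberg over all genes tested, with a threshold of 0.05. Blocking by pool rests on the design, since every group of a pool comes from the same library. Levels are CPM of summed UMIs; SEs come from the fit. Tools were R 4.3.3, edgeR 4.0.16, limma 3.58.1, DESeq2 1.42.0, Python 3.11.15, numpy 2.4.6, scipy 1.17.1, pandas 2.3.3 and matplotlib 3.10.9. In a simulation of high against low sums with 13477 genes, the test recovered 26.9%, 64.2% and 81.8% of genes changed by 1.5, 2 and 3 times, and called 4 unchanged genes. It changed 200 genes and set the dispersion of every gene to 0.01, a value not estimated from these sums. The rates therefore need not hold for the fit on the data.

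The cells and the 28 gene lists were chosen with earlier results of these data known. Genes named are the score genes, the 12 of largest fold each way (called, on the same side in both pools, at least 20 CPM in the higher group), up to 5 members of each list with the smallest p, and any tested ERK output gene. Some genes that the rule picks are not reported here.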

Additional observations from a re-analysis of the deposited data

Results flagged for a closer look

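Barcodes with fewer than 3000 UMIs entered no comparison. They passed the rules on genes and mitochondrial UMIs, and there were 757 in pool 1 and 657 in pool 2. The 5 score genes summed to 1082 CPM in those of pool 1 and to 1090 CPM in those of pool 2, against 657 and 773 CPM over the kept cells, which is a signal outside the comparisons. The share of score UMIs was thus higher below the depth limit than above it in both pools, as high cells were also shallow among the kept cells. The part that depth plays in this was not tested.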

How the results depend on the processing

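Precision is limited by 2 pools, 2 residual degrees of freedom and few UMIs in high cells, and no comparison reaches beyond these tumours. The high against low calls (946 higher, 943 lower) became 140 higher and 267 lower with no replicate block, that is without pool as a term; 1868 higher scaled by total UMIs alone; 529 higher with cells chosen on a random subset of UMIs; 1462 higher and 1784 lower for the top 5%; 1931 and 2220 without cells of a broader marker rule, at least 2 UMIs of each of at least 3 genes of the committed precursor, mature oligodendrocyte, microglia or vascular lists, which took out 3.27% and 15.6% of high cells and 34.4% and 40.5% of low cells; 560 higher with a score without Spry4; 1585 lower without Dusp6; and 1428 lower in cells thinned to 3000 UMIs. Against middle cells, where edgeR called 0, higher and lower calls were 243 and 702 by DESeq2, 1 and 15 with no filter on low counts, 649 and 952 thinned, 17 and 43 chosen on a subset of UMIs, 28 and 146 at a minimum of 5000 UMIs, 705 and 990 for the top 5%, 1277 and 1775 without cells of that marker rule, 21 and 89 without Spry1 in the score, 16 and 94 without Spry4, 372 and 477 without Dusp6, 26 and 155 within bins of Malat1 share, 22 and 124 balanced, and 38 and 184 balanced without differentiated or immune cells. The cause was not tested in any of these. The broader marker rule counts UMIs, and high cells were shallower. It marked 23.8% and 39.8% of middle cells. Among balanced cells it marked 19% and 34.9% of high cells, against 31.7% and 42.7% of low cells.

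Left-out Etv4 passed within bins of depth (0.66, edgeR adjusted p = 0.00273) and balanced (0.64, edgeR adjusted p = 0.0041). With either pool left out, the value is the log2 ratio of CPM in the pool kept, with a prior count of 1, no TMM scaling and no test. Both pools can therefore lie above the fitted value. For the left-out genes this ratio ran from 1.19 to 1.33 for Spry1, 1.52 to 1.92 for Spry4, 1.75 to 1.81 for Dusp6, 0.55 to 0.77 for Etv4 and 0.60 to 1.24 for Etv5. The cycling share was 14.2% and 4.58% of high cells and 20.4% and 16.6% of low cells thinned to 2000 UMIs, and 11.6% and 2.29% of high cells and 17.8% and 15.6% of low cells with 3 of 10 genes. Signs turned for Epha4 (0.04), Dusp4 (-0.19), Neu4 (0.13) and Trf (0.18) without cells of that marker rule; for Dusp4 thinned (-0.35); for Myc with equal weight of score genes (-0.00); for Trf (0.70) and Ermn (0.30) without differentiated or immune cells; and, when also balanced, for Trf (1.01), Ermn (0.46) and Mapk3 (0.23). Of 2079 results for 92 genes under these alternatives, 1797 kept direction and side of the threshold, 193 lost the call, 78 gained it and 11 turned sign. Balancing and the removal of differentiated or immune cells were chosen after seeing the data. Wherever cells were removed by a marker rule, the groups were formed again from the remaining cells. Fits on Xist-positive or Y-linked-positive cells alone could not be run, since each leaves 1 pool.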
